A study of Mus musculus with 34 samples.

Results

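The expression of 10 genes of the brain endothelial barrier was followed in the hippocampus of aged mice that lacked Hdac1, carried the 5XFAD transgenes, or both. They were chosen by symbol as Cldn5, Ocln, Cdh5, Pecam1, Ly6c1, Flt1, Slc2a1, Mfsd2a, Slco1a4 and Abcb1a, and all 10 were found among the 23951 genes listed in the deposited files. The study asked how loss of the histone deacetylase HDAC1 and amyloid pathology alter gene expression in the ageing brain. RNA came from whole hippocampus, 1 library per mouse, and every group carried the floxed allele Hdac1f/f. The 4 control mice had Hdac1f/f alone, the 5 Hdac1 cKO mice had Hdac1f/f with Nestin-Cre, the 6 5XFAD mice had Hdac1f/f with 5XFAD, and the 5 compound mice had Hdac1f/f with Nestin-Cre and 5XFAD. The labels give an age of 13 to 14 months for the control and Hdac1 cKO mice and of 13 months for the others. The 5XFAD and compound samples were also deposited in a separate block from the control and Hdac1 cKO samples. Any difference between these blocks cannot be told apart from the transgenes. Nestin-Cre acts in neural progenitors and so deletes Hdac1 in neurons and glia of neural origin, and whether it reaches endothelial cells is not given in the sources used here. In 5XFAD mice the Thy1 promoter drives the transgenes in neurons. Nuclei sorted from cortex for the astrocyte protein GFAP, from 3 control and 4 Hdac1 cKO samples, were used as a further set.

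Endothelial cells of brain capillaries are sealed to each other by tight junctions, take up few vesicles, and feed the brain through dedicated transporters while pumping many foreign compounds back into the blood. Claudin-5 and occludin belong to the tight junction, VE-cadherin to the adherens junction, and GLUT1, MFSD2A and the organic anion and multidrug carriers to the transport side. These cells are a small part of the hippocampus, so a level in whole tissue reflects both how many endothelial cells were sampled and how much of the transcript each held, and fewer cells cannot be told apart from less RNA per cell in these samples.

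None of the 10 genes differed between hippocampal groups at an adjusted p under 0.05. On the log2(FPKM + 1) scale used here, only Pecam1, in 1 comparison, passed the study's thresholds for a differentially expressed gene (DEG). These are a fold change of at least 1.5 with an unadjusted p under 0.05. By the ratio of mean FPKM, Ocln would also pass in Hdac1 cKO against control mice. Cldn5 and Pecam1 would pass in compound against 5XFAD mice, and Pecam1 in compound against Hdac1 cKO mice. Pecam1 was lowest in the compound mice, at 0.421 ± 0.087 FPKM (SD, n = 5) against 1.40 ± 1.20 FPKM in the controls (n = 4). The control mean leans on control 3, at 3.15 FPKM. Without that mouse the log2 fold change, on the log2(FPKM + 1) scale, went from -0.64 to -0.34 and the call was lost. Levels are in FPKM, fragments scaled to transcript length and to the mapped fragments of the library. The levels of the 2 most abundant members, Ly6c1 and Slc2a1, overlapped between all 4 groups.

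The hippocampal groups behaved as labelled for the genes that define them. Hdac1 lay between 5.91 and 10.7 FPKM in the controls and between 6.10 and 9.64 FPKM in 5XFAD mice, but between 2.36 and 3.03 FPKM in Hdac1 cKO and between 1.15 and 2.52 FPKM in compound mice. Thy1, whose promoter drives the transgenes, lay between 303 and 388 FPKM in mice without 5XFAD and between 1563 and 2357 FPKM in mice with it. Steps between low FPKM values gave the relative sequencing depth. With control 1 of each set as 1, hippocampal libraries spanned 0.754 to 2.35 and GFAP+ nuclei 0.869 to 1.26. Choroid plexus RNA stood apart. Ttr, which encodes the transthyretin secreted by choroid plexus, was listed at 576, 17485, 20146 and 12903 FPKM in controls 1 to 4, at 56.5 to 1608 FPKM in Hdac1 cKO, at 53.8 to 7892 FPKM in 5XFAD and at 58.9 to 13910 FPKM in compound mice.

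Promoter sequence is shown for 3 of the 8 genes with an entry, the tight junction pair that was lower in nuclei labelled Hdac1 cKO and the VEGF receptor whose level separated compound from 5XFAD mice. Each run gives the 250 bases before the first listed transcription start, 5′ to 3′ on the gene's strand, from RefSeq on build GRCm38.p6, which is a later build than the mm9 of the expression files. Capitals mark a GC box (GGGCGG or CCGCCC), an ETS-type motif (GGAAGT or ACTTCC) or a TATA box (TATAAA or TTTATA), each searched on both strands, and overlapping motifs would share capitals.
Cldn5 promoter, chr16:18776597-18776846, plus strand: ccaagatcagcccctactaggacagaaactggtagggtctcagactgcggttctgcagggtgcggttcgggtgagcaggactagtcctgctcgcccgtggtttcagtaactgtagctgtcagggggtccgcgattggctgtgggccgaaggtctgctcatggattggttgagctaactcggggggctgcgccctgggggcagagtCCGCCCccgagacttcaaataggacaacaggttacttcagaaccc
Ocln promoter, chr13:100552719-100552968, minus strand: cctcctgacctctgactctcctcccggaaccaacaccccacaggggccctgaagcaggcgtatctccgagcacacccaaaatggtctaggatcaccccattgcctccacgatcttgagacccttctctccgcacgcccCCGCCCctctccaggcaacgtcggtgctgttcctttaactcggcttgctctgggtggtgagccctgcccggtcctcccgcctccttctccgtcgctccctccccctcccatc
Flt1 promoter, chr5:147726012-147726261, minus strand: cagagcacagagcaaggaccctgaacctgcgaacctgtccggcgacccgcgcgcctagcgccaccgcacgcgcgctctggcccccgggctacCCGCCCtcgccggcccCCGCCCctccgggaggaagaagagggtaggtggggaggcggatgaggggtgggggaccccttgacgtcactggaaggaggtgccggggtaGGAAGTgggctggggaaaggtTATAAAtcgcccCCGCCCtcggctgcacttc
The Cldn5 and Ocln windows hold 1 GC box each, and the Flt1 window holds 3 GC boxes, 1 ETS-type motif and 1 TATA box. Of the 8 members with an entry, 4 hold a GC box, against 32.7% of the 32851 windows in the table. An ETS-type motif was found in 1 member and in 19.7% of all windows, and a TATA box in 2 members and in 12.4%. The windows of Slco1a4 and Abcb1a are the poorest in G and C, at 39.2% and 40.4%, and that of Flt1 is the richest at 70.4%. Cdh5 and Pecam1 have no entry. These matches describe letters in a window and not sites of binding.

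The 10 genes sit on 8 chromosomes of mm9, as annotated on the same assembly by GENCODE. Slc2a1 (chr4:118781316-118809935) and Mfsd2a (chr4:122624093-122638431) share chromosome 4. Flt1 (chr5:148373180-148537587) and Abcb1a (chr5:8660077-8748575) share chromosome 5. Cldn5 is the shortest locus, at 1414 bases (chr16:18776940-18778353), and Flt1 the longest, at 164408 bases.

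The level per length differed widely between members. Ly6c1, a GPI-anchored surface antigen of mouse brain endothelium, had a median of 95.7 FPKM over the 20 hippocampi, and Slc2a1, which encodes the glucose transporter GLUT1, had 14.7 FPKM. Slco1a4, Mfsd2a and Flt1 followed at 6.25, 5.93 and 4.40 FPKM, then Abcb1a at 2.02 FPKM. Ocln, Cldn5, Cdh5 and Pecam1 were lowest, at 1.16, 0.976, 0.723 and 0.709 FPKM. The ranges of those 4 low genes over the 20 mice overlap, as do those of Slco1a4, Mfsd2a and Flt1. FPKM divides by transcript length although these libraries sample only 3′ ends, so the order between genes is approximate.

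Few fragments lay behind the junction genes. In the hippocampal libraries Cldn5 rested on 2 to 15 recovered fragments per mouse, with 141 over all 20, and in the compound mice on 2 to 6. Ocln rested on 4 to 41, Cdh5 on 4 to 28 and Pecam1 on 3 to 39. Flt1 had 56 to 230 fragments, Slco1a4 46 to 281 and Slc2a1 83 to 341, while those of Ly6c1 could not be recovered. The spread between mice of a group, as a pooled coefficient of variation, was 49.3% for Cldn5 and 33.0% for Cdh5, and 12.3% for Flt1, which varied least. The fragment numbers take 1 step in FPKM as 1 fragment, and a step of more fragments would mean more fragments and less counting error. At 1 fragment per step, counting alone would give 44.7% for Cldn5, 29.9% for Cdh5 and 8.98% for Flt1.

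**Figure D1:**
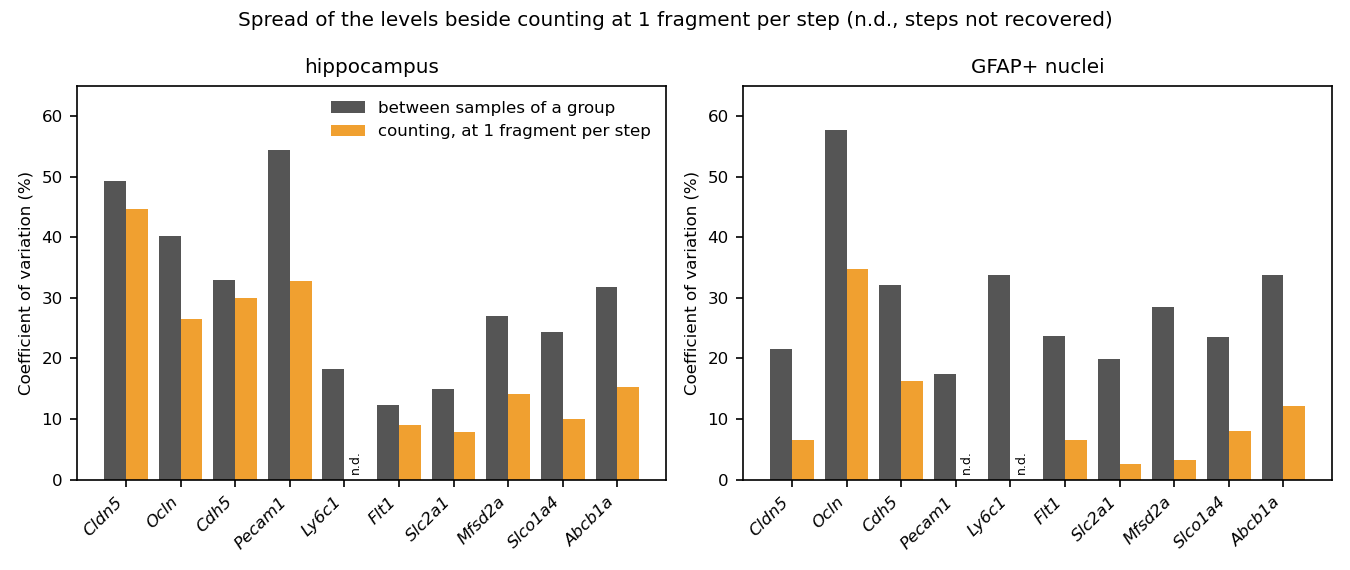
Pooled coefficient of variation (%, y axis) of each gene between samples of a group (grey) and as counting alone would give it at 1 fragment per step (orange), for hippocampus (left) and GFAP+ nuclei (right). In hippocampus the bars of Cldn5 (49.3% and 44.7%) and Cdh5 (33.0% and 29.9%) nearly meet, while in GFAP+ nuclei Cldn5 varied by 21.5% where such counting gives 6.48%.

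Claudin-5 is the main claudin of brain capillaries. Cldn5 was at 1.26, 1.04, 2.63 and 0.690 FPKM in controls 1 to 4 and at 1.18, 0.788, 0.847, 0.813 and 1.61 FPKM in Hdac1 cKO mice 1 to 5. In 5XFAD mice it ran from 0.658 to 2.37 FPKM with a median of 1.503 FPKM. Compound mice 1 to 5 had 0.531, 1.47, 0.671, 0.678 and 0.311 FPKM. Every group overlaps the others, and 4 of the 5 compound mice lie below all but 1 of the 5XFAD mice. The log2 fold change on the log2(FPKM + 1) scale was -0.19 (SE 0.23) for Hdac1 cKO, 0.04 (SE 0.24) for 5XFAD and -0.45 (SE 0.26) for compound mice against the same 4 controls. Against 5XFAD mice the compound mice stood at -0.49 (95% interval -0.94 to -0.04, adjusted p = 0.734 by limma), and the two-sided exact permutation test gave p = 0.0519, or 0.381 adjusted over the 60 tests of single members. The ratio of mean FPKM was -0.98 on the log2 scale and the value with a pseudocount of 0.1 was -0.93, and Cldn5 would be called a DEG at either. Against control the ratio for compound mice was -0.94 on the log2 scale, and not a DEG.

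Occludin spans the membrane at tight junctions. Ocln was at 1.85, 1.92, 1.26 and 2.10 FPKM in controls 1 to 4 and at 1.30, 0.831, 1.03, 1.21 and 0.742 FPKM in Hdac1 cKO mice 1 to 5. The 5XFAD mice ran from 0.534 to 2.22 FPKM with a median of 0.999 FPKM, and compound mice 1 to 5 had 1.72, 1.59, 0.545, 0.779 and 0.821 FPKM. All 3 mutant groups had lower means than the controls, at 1.02 ± 0.237, 1.15 ± 0.589 and 1.09 ± 0.528 FPKM against 1.78 ± 0.362 FPKM, and each overlaps them. The log2 fold changes were -0.46 (95% interval -0.81 to -0.11, adjusted p = 0.288 by limma), -0.40 (95% interval -0.84 to 0.04) and -0.44 (95% interval -0.90 to 0.03). The exact permutation p was 0.0317, 0.105 and 0.0952, or at least 0.317 after adjustment over the 60 tests. The 3 values share 1 set of controls and are not independent of each other. None reached 1.5-fold on this scale; for Hdac1 cKO the ratio of mean FPKM, on the log2 scale, was -0.80, at which Ocln would be called a DEG, and for 5XFAD and compound mice it was -0.63 and -0.71, at which it would not. The 13 choroid plexus markers had median log2 fold changes of -2.99, -1.37 and -2.45 in the same 3 comparisons. With choroid plexus score as a covariate Ocln was at -0.65, -0.34 and -0.27. The first passed the DEG thresholds (SE 0.29, against 0.16 without the covariate, and adjusted p = 0.562 by limma). The cause was not tested. Compound mice did not separate from 5XFAD mice in Ocln, with a log2 interval of -0.50 to 0.42.

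VE-cadherin forms the endothelial adherens junction. Cdh5 was at 0.487, 0.740, 0.614 and 1.22 FPKM in controls, at 0.809, 0.606, 0.996, 1.09 and 0.965 FPKM in Hdac1 cKO mice, between 0.527 and 0.897 FPKM (median 0.736) in 5XFAD mice, and at 0.595, 0.314, 0.538, 0.652 and 1.15 FPKM in compound mice. The 4 groups lie over each other. Log2 fold changes against control were 0.11 (95% interval -0.26 to 0.49), -0.01 (95% interval -0.36 to 0.34) and -0.10 (95% interval -0.54 to 0.35) for Hdac1 cKO, 5XFAD and compound mice.

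**Figure D2:**
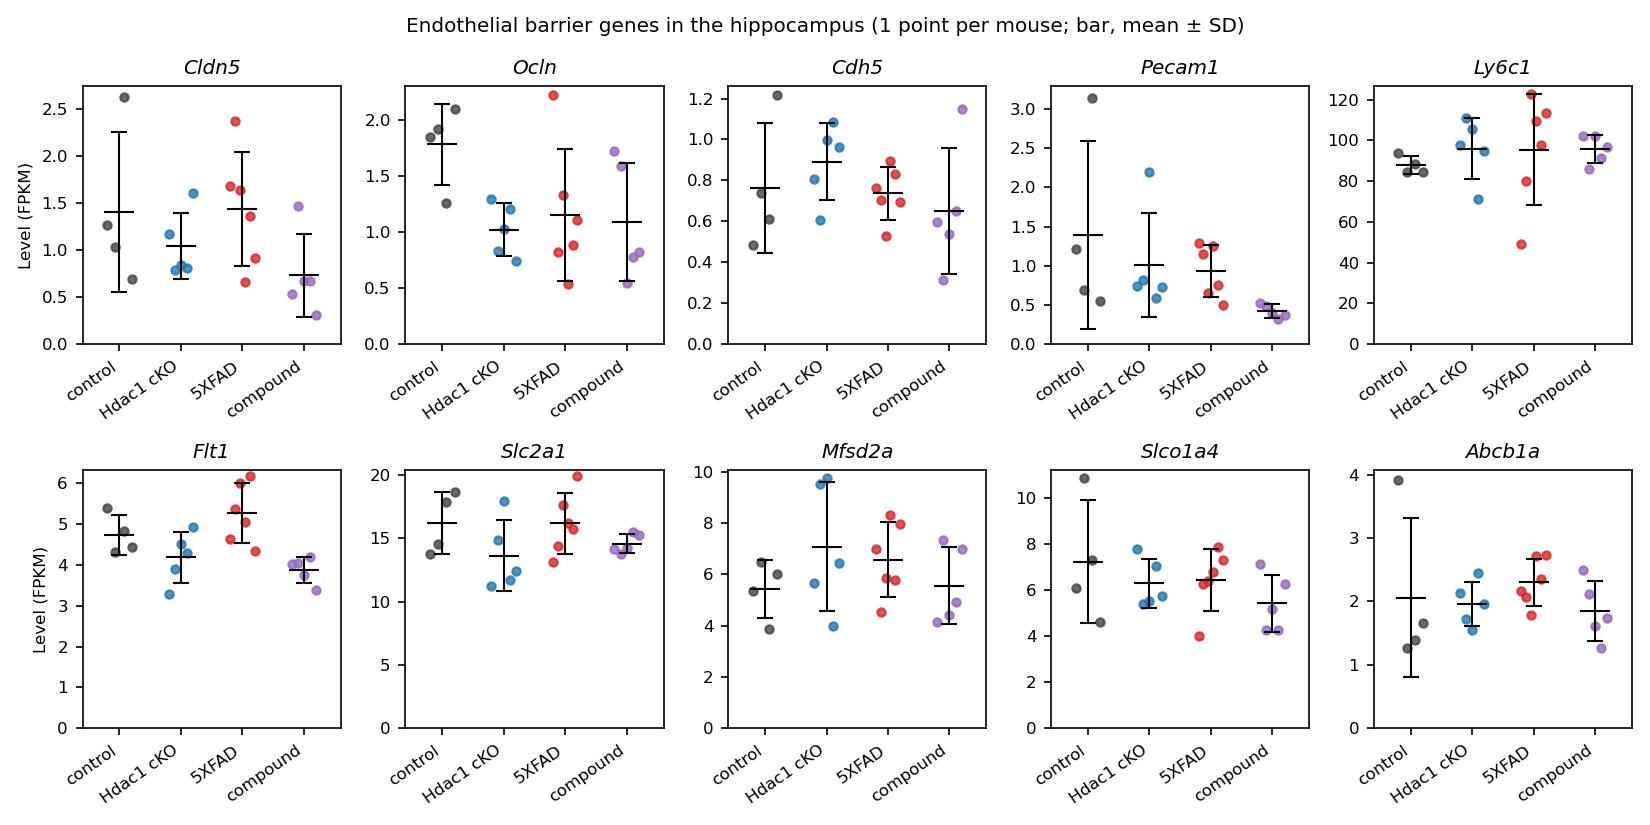
Level (FPKM, y axis from 0, linear) of each gene in the hippocampus of every mouse by group (1 point per mouse, in replicate order), with the group mean ± SD in black. All 5 compound mice lie at 0.315 to 0.528 FPKM for Pecam1, below the lowest control at 0.549 FPKM, whereas the Ly6c1 values of the 4 groups lie over each other.

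PECAM-1 is an adhesion molecule of endothelial cell contacts that platelets and some leukocytes also carry. Pecam1 was at 1.21, 0.690, 3.15 and 0.549 FPKM in controls 1 to 4, and at 0.737, 0.816, 2.19, 0.594 and 0.728 FPKM in Hdac1 cKO mice 1 to 5. It ran from 0.5002 to 1.28 FPKM with a median of 0.954 FPKM in 5XFAD mice, and compound mice 1 to 5 had 0.528, 0.487, 0.401, 0.315 and 0.372 FPKM. The compound mice lie below every control and every Hdac1 cKO mouse, and of the 5XFAD mice only the lowest lies below a compound mouse, while control 3 and Hdac1 cKO mouse 3 stand high. Against control the log2 fold change of compound mice was -0.64 (SE 0.27, 95% interval -1.23 to -0.05, adjusted p = 0.423 by limma), which passes the DEG thresholds. It was -1.24 with a pseudocount of 0.1, and the ratio of mean FPKM was -1.73 on the log2 scale. Without control 3 it was -0.34 and not a DEG. The call was also lost, at -0.64 to -0.61, without control 1 or compound mouse 3, 4 or 5, and with quantile normalization (-0.60), a replicate block (-0.63) and a choroid plexus covariate (-0.54). Against 5XFAD it was -0.43 (adjusted p = 0.734) and against Hdac1 cKO -0.45 (adjusted p = 0.443), where the ratios, -1.15 and -1.27 on the log2 scale, would be called DEGs. The two-sided exact permutation tests gave p = 0.0159, 0.00866 and 0.00794 for the 3 comparisons, or 0.190, 0.173 and 0.173 after adjustment over the 60 tests. The first and the last are the smallest that this test allows for groups of these sizes. The 5 compound libraries hold 26 Pecam1 fragments in all, 3 to 7 each. Hdac1 cKO and 5XFAD mice stood at -0.19 and -0.21 against control, with intervals of -0.84 to 0.46 and -0.77 to 0.34.

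Ly6c1 was the most abundant member and did not separate the groups. It was at 94.0, 84.3, 88.5 and 84.5 FPKM in controls, at 97.6, 110.8, 105.5, 71.5 and 94.5 FPKM in Hdac1 cKO mice, and at 102.1, 86.0, 102.1, 91.4 and 96.8 FPKM in compound mice. The 5XFAD mice ran from 49.0 to 123.0 FPKM with a median of 103.6 FPKM, wider than any other group on both sides. Log2 fold changes against control were 0.11 (95% interval -0.14 to 0.37), 0.06 (95% interval -0.40 to 0.52) and 0.12 (95% interval -0.06 to 0.30) for Hdac1 cKO, 5XFAD and compound mice. Each interval lies inside a 1.5-fold change.

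FLT1 is the VEGF receptor 1, which binds VEGF-A and limits its signalling. Flt1 was at 5.402, 4.31, 4.82 and 4.44 FPKM in controls 1 to 4, at 3.29, 3.90, 4.51, 4.30 and 4.94 FPKM in Hdac1 cKO mice, and at 4.02, 4.05, 3.75, 4.19 and 3.39 FPKM in compound mice. In 5XFAD mice it ran from 4.35 to 6.18 FPKM with a median of 5.22 FPKM. All compound mice lie below all 5XFAD mice and all controls, although the gap between the highest compound mouse and the lowest control is 4.19 to 4.31 FPKM. Compound against 5XFAD mice gave a log2 fold change of -0.36 (SE 0.12, 95% interval -0.61 to -0.10, adjusted p = 0.718 by limma), under 1.5-fold. The exact permutation p was 0.00433, the smallest that this test allows for groups of these sizes, or 0.173 adjusted over the 60 tests. Against control the log2 fold changes were -0.15 (95% interval -0.44 to 0.14) for Hdac1 cKO, 0.12 (95% interval -0.15 to 0.40) for 5XFAD and -0.23 (95% interval -0.52 to 0.05) for compound mice. For compound mice against control the exact permutation p was 0.0159, again the smallest allowed, or 0.190 adjusted. Flt1 was the member with the lowest p for any difference among the 4 groups, 0.0198 before and 0.259 after adjustment over all genes in limma.

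GLUT1 carries glucose across the barrier. Slc2a1 was at 13.7, 14.5, 17.9 and 18.6 FPKM in controls, at 11.2, 14.8, 17.9, 11.7 and 12.4 FPKM in Hdac1 cKO mice, between 13.1 and 19.9 FPKM (median 15.9) in 5XFAD mice, and at 14.1, 13.8, 14.3, 15.5 and 15.2 FPKM in compound mice. Of the 5 Hdac1 cKO mice, 3 lie below the lowest control, and the other groups overlap the controls. Log2 fold changes were -0.24 (95% interval -0.56 to 0.08), -0.0024 (95% interval -0.28 to 0.28) and -0.13 (95% interval -0.39 to 0.12). Each interval lies inside a 1.5-fold change.

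MFSD2A carries docosahexaenoic acid as a lysolipid into the brain and restrains vesicle transport in endothelial cells. Mfsd2a was at 5.36, 6.47, 3.88 and 6.01 FPKM in controls, at 5.66, 9.52, 9.76, 3.97 and 6.43 FPKM in Hdac1 cKO mice, between 4.54 and 8.31 FPKM (median 6.42) in 5XFAD mice, and at 4.13, 7.31, 4.39, 4.92 and 6.98 FPKM in compound mice. Hdac1 cKO mice 2 and 3 stand above every control and the other 3 lie among them. The log2 fold changes of 0.29 (95% interval -0.20 to 0.78), 0.23 (95% interval -0.14 to 0.60) and 0.02 (95% interval -0.40 to 0.44) had adjusted p of 0.677, 0.664 and 0.988 in limma.

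OATP1A4, a carrier of organic anions, and P-glycoprotein, which expels lipophilic drugs, handle foreign compounds at the barrier. Slco1a4 was at 6.10, 10.9, 7.30 and 4.62 FPKM in controls, at 7.77, 5.38, 5.54, 7.04 and 5.73 FPKM in Hdac1 cKO mice, between 3.99 and 7.86 FPKM (median 6.58) in 5XFAD mice, and at 7.11, 4.26, 5.17, 4.28 and 6.26 FPKM in compound mice. Control 2 is the highest and the rest overlap. Abcb1a was at 3.92, 1.26, 1.40 and 1.66 FPKM in controls, at 2.14, 1.72, 1.54, 2.44 and 1.97 FPKM in Hdac1 cKO mice, between 1.79 and 2.73 FPKM (median 2.27) in 5XFAD mice, and at 2.49, 2.11, 1.62, 1.26 and 1.74 FPKM in compound mice. Control 1 stands apart from the other 3 controls, all of which lie below every 5XFAD mouse. The log2 fold changes for Hdac1 cKO, 5XFAD and compound mice were -0.13, -0.11 and -0.33 for Slco1a4 (lowest adjusted p 0.648) and 0.02, 0.18 and -0.04 for Abcb1a (lowest adjusted p 0.803). With choroid plexus score as a covariate the value of Abcb1a in Hdac1 cKO mice was -0.81 (SE 0.29, adjusted p = 0.501 by limma) and passed the DEG thresholds. That fit called 874 of 14265 genes, against 480 without the covariate. Control 1, with the high Abcb1a, is also the control with the least Ttr. Ttr was 576 FPKM there, 12903 to 20146 FPKM in the other controls and 56.5 to 1608 FPKM in Hdac1 cKO mice. The score and the group are thus hard to separate in this fit, and the cause was not tested.

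**Figure D3:**
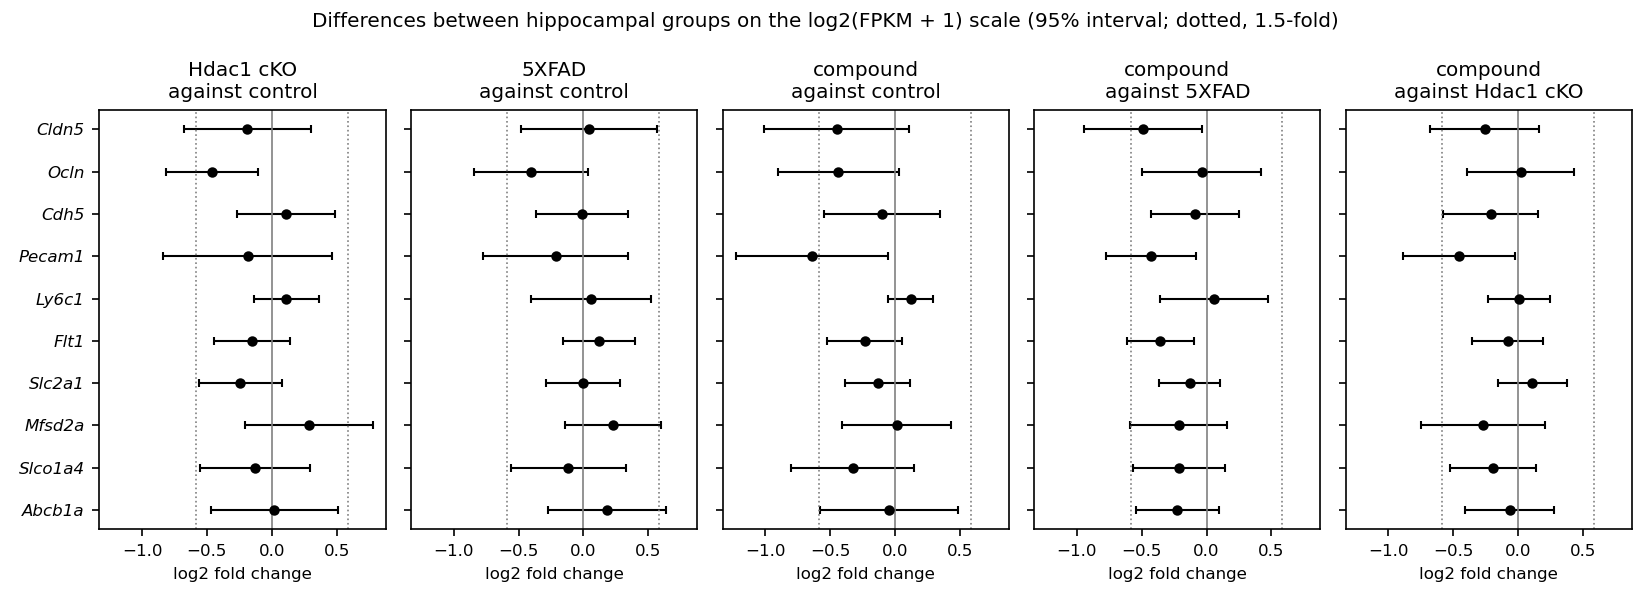
Log2 fold change on the log2(FPKM + 1) scale (x axis, point) with its 95% interval (bar) for each gene in the 5 hippocampal comparisons, with dotted lines at 1.5-fold. Pecam1 in compound against control mice, at -0.64, is the single point beyond a dotted line, and 9 of the 10 points lie below 0 for compound against 5XFAD mice.

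Counts over the members are given beside the share of all genes tested. For Hdac1 cKO against control, 0 of 10 members were DEGs, against 3.36% of all 14265 genes tested, and 0 had an adjusted p under 0.05, against 0.154%, with 1 (Ocln) at an unadjusted p under 0.05 in limma, as were 11.7% of all genes. For 5XFAD against control, 0 of 10 were DEGs (2.95% of all genes), 0 passed adjustment (0.708%) and 0 had an unadjusted p under 0.05 (10.7%). For compound against control, 1 of 10 was a DEG (4.24%), 0 passed adjustment (0.662%) and 1 had an unadjusted p under 0.05 (10.5%). For compound against 5XFAD, 0 of 10 were DEGs (1.28%), 0 passed adjustment (0.00698%), and 3, Cldn5, Pecam1 and Flt1, had an unadjusted p under 0.05, as did 6.61% of all genes. For compound against Hdac1 cKO, 0 of 10 were DEGs (3.55%), 0 passed adjustment (1.49%) and 1 had an unadjusted p under 0.05 (10.3%).

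Levels did not overlap between groups for 0 members in Hdac1 cKO against control (4.23% of all genes) and 0 in 5XFAD against control (2.90%). They did not overlap for 2, Pecam1 and Flt1, in compound against control (4.27%), for 1, Flt1, in compound against 5XFAD (0.607%) and for 1, Pecam1, in compound against Hdac1 cKO mice (3.34%). The median log2 fold change of the 10 members was -0.14, 0.02, -0.18, -0.21 and -0.14 in these 5 comparisons, in the order given, where the median of all genes lay between -0.0096 and -0.00046. Between 6 and 7 of the 10 intervals lay inside a 1.5-fold change in each comparison. For low genes this scale understates a change.

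The effect of Hdac1 loss in 5XFAD mice was set against its effect in mice without the transgenes as an interaction over all 20 hippocampi. It had an adjusted p under 0.05 for 0 members and for 0% of 14389 genes, and at an unadjusted p under 0.05 it was 0 members and 8.97% of all genes. Mfsd2a had the largest value, -0.50 (95% interval -1.11 to 0.11, adjusted p = 0.627 by limma), from a log2 fold change of 0.29 without the transgenes and -0.22 with them. Ocln had the opposite sign, 0.42 (95% interval -0.15 to 0.99). A difference among the 4 groups had an adjusted p under 0.05 for 0 members, against 1.89% of all genes, and 1 member, Flt1, had an unadjusted p under 0.05, against 13.6%.

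Related gene copies could share reads with 3 of the members. Abcb1b, the other mouse gene for P-glycoprotein, was at 0.815, 0.980, 0.911 and 1.01 FPKM in controls, between 1.23 and 1.94 FPKM in 5XFAD mice, and at 0.933, 1.79, 1.38, 2.22 and 1.69 FPKM in compound mice. All 6 5XFAD mice lie above every control. The log2 fold change was 0.37 (adjusted p = 0.388) for 5XFAD and 0.41 (adjusted p = 0.457) for compound mice by limma, under 1.5-fold, while Abcb1a stood at 0.18 and -0.04. Hdac1 cKO mice had 0.693 to 1.58 FPKM. Ly6c2, a monocyte antigen, rested on 0 to 14 fragments per hippocampus, up to 3.21 FPKM, far under the level of Ly6c1. Slco1a5, a carrier that the choroid plexus makes, was listed at 0 in all 5 Hdac1 cKO mice and at up to 1.23 FPKM in the controls, and Slco1a6 reached at most 0.161 FPKM in any library. How the authors' counting split reads between copies is not given in the sources used here, so the values of these genes and of their copies are uncertain.

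Other vascular genes were read from lists of junction, endothelial identity, transport, Wnt and Norrin, VEGF and angiopoietin, caveolar and activation genes, 88 in the files. In Hdac1 cKO mice, 2 of the 74 tested were higher DEGs and 3 lower, 6.76% in all against 3.36% of all genes. In 5XFAD mice 1 of 73 was higher and 1 lower (2.74% against 2.95%), and in compound mice against control 5 of 72 were higher and 4 lower (12.5% against 4.24%). In compound against 5XFAD mice 2 of 72 were lower (2.78% against 1.28%), and in compound against Hdac1 cKO mice 3 were higher and 2 lower (6.94% against 3.55%). At an adjusted p under 0.05 the count was 0 except for 1 gene, Icam1, in compound against Hdac1 cKO mice.

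Among junction genes, Cgnl1 (paracingulin) fell by 1.26 and F11r (JAM-A) by 0.75 on the log2 scale in Hdac1 cKO mice (adjusted p = 0.162 and 0.314 by limma), and the other 6 of 8 tested were not DEGs. F11r rose by 0.88 (adjusted p = 0.0623) in compound against Hdac1 cKO mice. Cgnl1 is also made by epithelia, and F11r by epithelia, platelets and leukocytes. In the same Hdac1 cKO comparison 13 of 13 markers of the choroid plexus, an epithelium, were lower DEGs, and their part in these values was not tested. Of 21 endothelial identity genes, only Sox18, a transcription factor of endothelial development, was a DEG in Hdac1 cKO mice, at 0.66 (adjusted p = 0.263), and in compound mice Palmd and Nostrin stood at -0.75 and -0.72 (adjusted p = 0.223 and 0.441).

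The transporter Slco1c1, which carries thyroid hormone at the barrier and is also made by choroid plexus and astrocytes, was a DEG in all 3 mutant groups against control. It lay at 8.46, 17.0, 18.1 and 14.6 FPKM in controls 1 to 4, between 5.21 and 9.42 FPKM in Hdac1 cKO, between 6.69 and 9.33 FPKM in 5XFAD and between 3.83 and 9.63 FPKM in compound mice. The control with the least Ttr is the one with the least Slco1c1, which held in no mutant group. 5XFAD mouse 5, with the least Ttr of its group, had 8.51 FPKM of Slco1c1, above mice 1 and 3 at 6.69 and 7.65 FPKM. In each of the 4 groups the mouse with the most Ttr had the most Slco1c1, though among 5XFAD mice by only 9.333 FPKM in mouse 2 against 9.310 FPKM in mouse 6. Log2 fold changes were -0.89, -0.73 and -1.16 (adjusted p = 0.133, 0.120 and 0.0687), and the difference among the 4 groups had an adjusted p of 0.0130 in limma. Of the 13 choroid plexus markers, 9 were lower DEGs in compound mice too and 0 in 5XFAD mice, where their median log2 fold change was -1.37, and their part in the result was not tested.

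Slco2b1, an organic anion carrier that microglia also make, rose by 0.75 in 5XFAD and 0.70 in compound mice (adjusted p = 0.0577 and 0.334), with 0.0276 for the difference among the 4 groups. The summed level of 7 microglia markers was 140 to 182 FPKM in controls, 147 to 169 FPKM in Hdac1 cKO, 308 to 406 FPKM in 5XFAD and 363 to 635 FPKM in compound mice, and its part was not tested. Icam1 is an adhesion molecule of activated endothelium that glia can also make. It rose by 0.59 in compound mice against control and by 0.86 against Hdac1 cKO mice (adjusted p = 0.327 and 0.0386 by limma). Ackr1, the chemokine receptor of venules, rose by 0.60 in Hdac1 cKO and by 0.64 in compound mice (adjusted p = 0.198 and 0.0643). Cav2 (caveolin-2) rose by 0.69 and Sdpr (cavin-2) fell by 0.76 in compound mice, and Angpt1 rose by 0.61. Edn1 (endothelin-1) and Sox18 fell by 0.60 and 0.59 in compound against 5XFAD mice, and Lrg1 and Sox18 fell by 0.62 and 0.70 in compound against Hdac1 cKO mice, with adjusted p from 0.0788 to 0.734 for these 7 values. Of 17 genes of the Wnt and Norrin pathway, which maintains barrier identity, 13 could be tested, and 0 were DEGs in each of the 5 hippocampal comparisons, where 1.28% to 4.24% of all genes were.

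Pericyte and smooth muscle transcripts, which lie beside endothelium, gave summed levels of 55.7 to 82.6 FPKM in controls, 58.9 to 75.4 in Hdac1 cKO, 64.2 to 91.6 in 5XFAD and 57.0 to 72.2 FPKM in compound mice over 13 markers. The summed level of the 10 members was 124 to 133, 105 to 150, 85.8 to 165 and 121 to 137 FPKM in the same order, most of it Ly6c1. Of the 9 mural markers that could be tested, 0 were DEGs in each of the 5 hippocampal comparisons, where 1.28% to 4.24% of all genes were.

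The members did not vary together from mouse to mouse. After group means were subtracted, the 45 pairs had a median Pearson r of -0.11 over the 20 hippocampi, with 19 pairs above 0. The highest were Ly6c1 with Slc2a1 at 0.57 and Slc2a1 with Mfsd2a at 0.43, among the more abundant members, and Cldn5 with Pecam1 at 0.43. At 1 fragment per step, counting alone would give nearly the whole spread of Cldn5 and Cdh5. A low r for these genes therefore decides nothing. These values are a description of 20 libraries that differ in depth. The 5 genes outside the list most like the members' mean were Kctd11, Fance, Cyb5d1, Rab23 and Mon1b, with r from 0.71 to 0.77 over 20 hippocampi. Without the 2 mice farthest from the median, r was from 0.57 to 0.75. These 5 were picked as the highest among 14379 genes compared and no chance level was computed, so they show no link to the members.

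**Figure D4:**
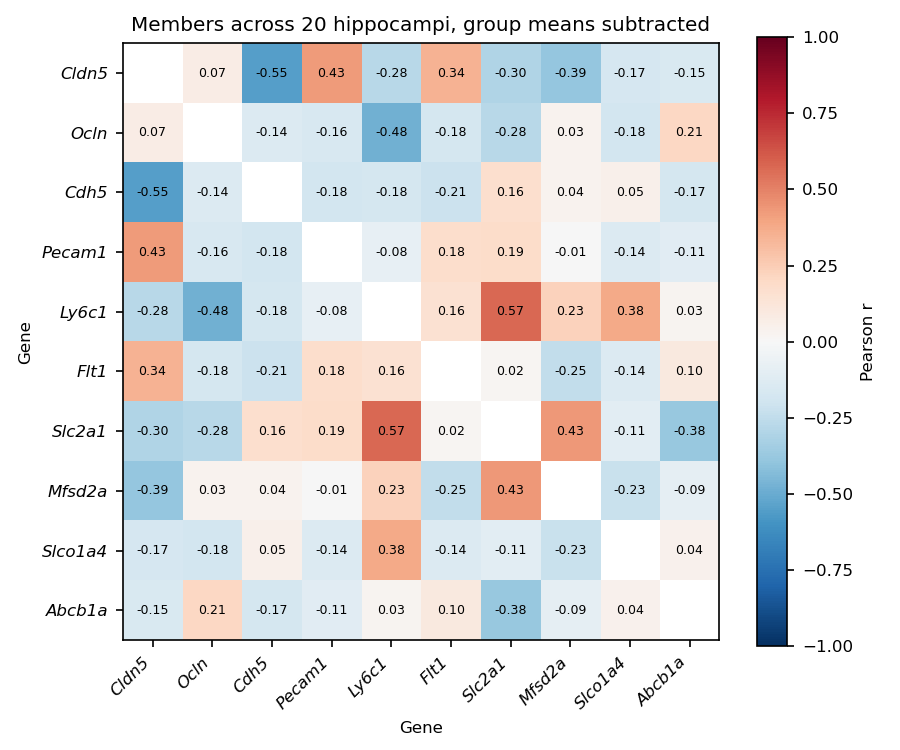
Pearson r (colour and number, -1 to 1) between each pair of the 10 genes across 20 hippocampi after subtraction of group means, on the log2(FPKM + 1) scale. Values run from -0.55 to 0.57, and 19 of 45 pairs lie above 0.

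GFAP+ nuclei from cortex held endothelial transcripts as well. In the 7 libraries Pecam1 lay between 0.666 and 1.01 FPKM, Cdh5 between 0.665 and 1.59 FPKM and Flt1 between 3.58 and 6.73 FPKM. Slc2a1 reached 59.0 to 94.9 FPKM, Mfsd2a 37.9 to 105.7 FPKM and Cldn5 15.6 to 43.2 FPKM. Neuron markers summed to 189 to 284 FPKM, mural markers to 295 to 480 FPKM and astrocyte markers to 2589 to 3074 FPKM. Tissue, RNA source and library method all differ from the hippocampal set, so levels are not compared across the sets. Whether these transcripts came from endothelial nuclei in the sort or from astrocyte nuclei was not tested. Hdac1 lay at 14.5, 9.91 and 22.3 FPKM in controls 1, 3 and 4 and at 9.71, 11.5, 5.80 and 8.73 FPKM in samples 1 to 4 labelled Hdac1 cKO, a log2 fold change of -0.70 (adjusted p = 0.984 by limma). These groups overlap, so directions in nuclei are between labels.

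Cldn5 and Ocln were lower in nuclei labelled Hdac1 cKO. Cldn5 was at 24.9, 43.2 and 29.8 FPKM in controls 1, 3 and 4 and at 22.2, 15.6, 19.6 and 20.9 FPKM in samples 1 to 4 labelled Hdac1 cKO. Ocln was at 1.06, 2.14 and 1.31 FPKM in those controls and at 0.700, 0.297, 0.550 and 0.0760 FPKM in those labelled Hdac1 cKO. For both genes every value labelled Hdac1 cKO lies below every control value. Cldn5 fell by 0.68 (SE 0.20, 95% interval -1.14 to -0.23) and Ocln by 0.83 (SE 0.28, 95% interval -1.45 to -0.21) on the log2 scale, and both were DEGs. For Ocln the ratio of mean FPKM was -1.89 on the log2 scale and the value with a pseudocount of 0.1 was -1.82. Both had an adjusted p of 0.984 in limma. The two-sided exact permutation p was 0.0571 for each, the smallest that this test allows for 3 against 4 samples. Without control 3, which has the highest Cldn5 and Ocln, the values were -0.47 and -0.66 and neither was a DEG. The Cldn5 call was also lost with a replicate block and without Hdac1 cKO sample 2, at -0.58 in both. A filter at 1 FPKM left Ocln out. Cldn5 rested on at least 149 fragments in each library and Ocln on 2 to 57.

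These 2 of 10 members compare with DEGs among 2.58% of the 15070 genes tested in GFAP+ nuclei, and levels did not overlap for 2 members, Cldn5 and Ocln, and for 5.72% of all genes. No member had an adjusted p under 0.05, as did 0.0133% of all genes, and 2 had an unadjusted p under 0.05 (4.70% of all genes). The other 8 had log2 fold changes from -0.35 (Flt1) to 0.41 (Mfsd2a), none a DEG, and the median of the 10 was -0.16. Mfsd2a was at 66.2, 62.9 and 37.9 FPKM in controls and at 67.2, 57.0, 105.7 and 66.5 FPKM in samples labelled Hdac1 cKO (95% interval -0.13 to 0.95). Of 81 other vascular genes tested, 2 were higher DEGs, Fzd4 at 0.81 and Vegfc at 0.93, and 1 lower, Sox18 at -1.08, all with an adjusted p of 0.984. Fzd4 is the receptor of Norrin in barrier endothelium and Vegfc a ligand of lymphatic and venous growth. Of 10 choroid plexus markers tested, 3 were higher DEGs in the same comparison, where Ttr lay between 6.40 and 131 FPKM in controls and between 95.9 and 246 FPKM in nuclei labelled Hdac1 cKO. The 8 fibroblast and meningeal markers had log2 fold changes from -0.52 to -0.12, with 0 DEGs. The 11 mural markers tested ran from -0.36 to 0.22, also with 0 DEGs. The part of these cell types in the values of the members was not tested.

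**Figure D5:**
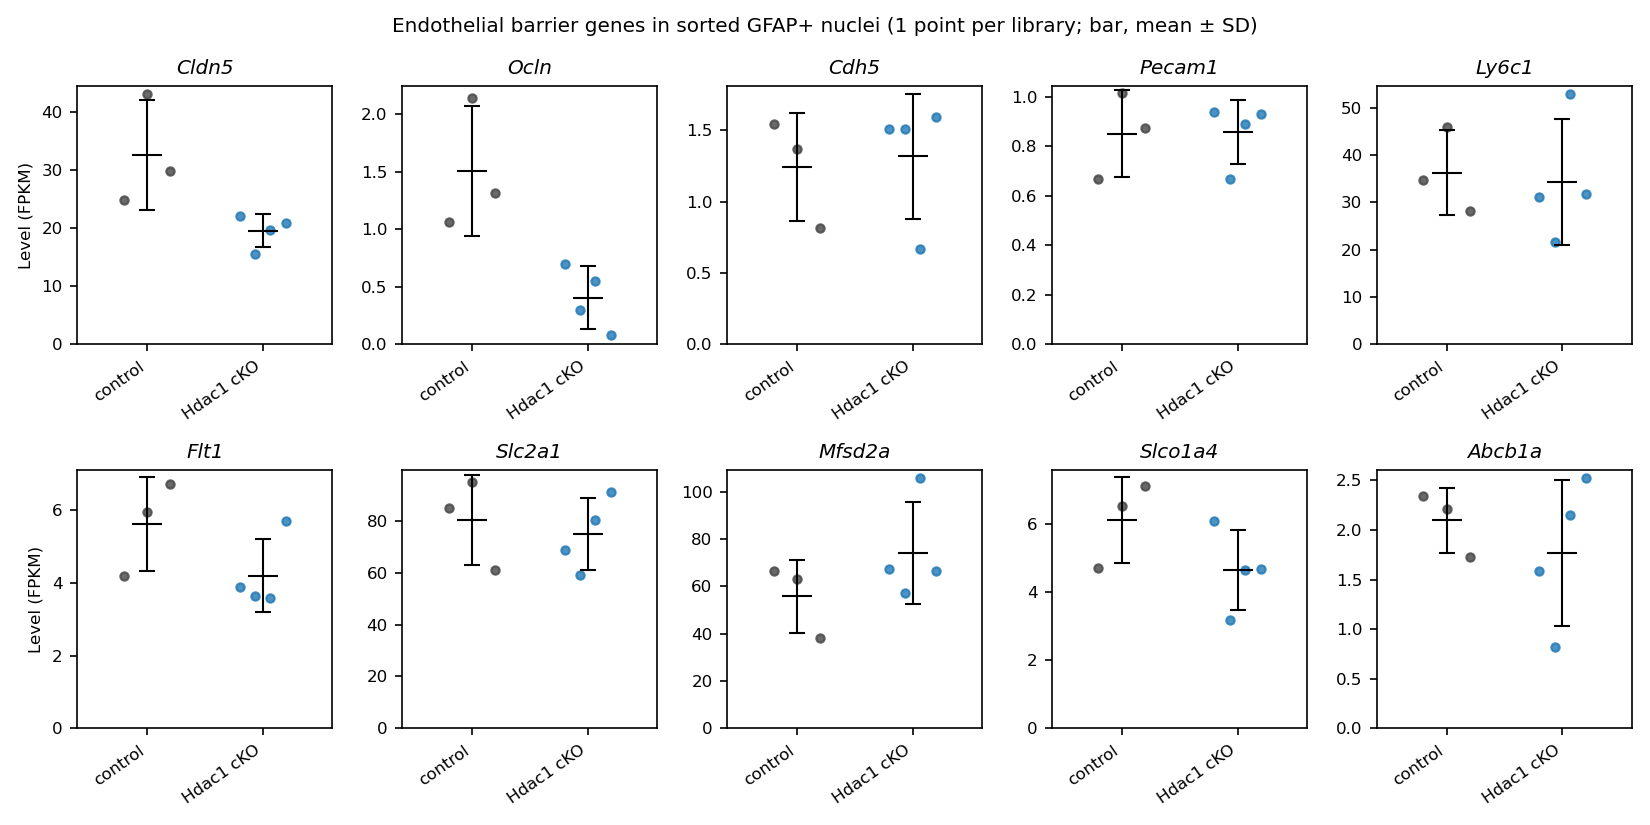
Level (FPKM, y axis from 0, linear) of each gene in sorted GFAP+ nuclei of cortex in 3 libraries labelled control and 4 labelled Hdac1 cKO (1 point each), with the group mean ± SD in black. Every Hdac1 cKO point lies below every control point for Cldn5 (highest 22.2 against lowest 24.9 FPKM) and Ocln (0.700 against 1.06 FPKM).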

How the data were processed

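RNA-seq was analysed in 27 of the 34 samples listed, 20 hippocampi and 7 libraries of GFAP+ nuclei. The ChIP-seq samples (6) and control sample 2 of the nuclei were left out as not analysed here. Deposited values are FPKM, with 1 file per sample. Per the study's methods and the submitters' processing notes, the authors aligned reads, collapsed beforehand in the hippocampal set, with Tophat2 and computed FPKM with Cufflinks 2.0.0 from UCSC genes of mm9. Hippocampal libraries sampled 3′ ends by digital gene expression, and nuclei used SMART-Seq v4. Whether reads were collapsed by sequence or by molecular identifier is not given in the sources used here, and intervals from fragments cover counting error only.

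Values were transformed to log2(FPKM + 1). A gene entered a fit where its mean FPKM over the compared samples reached 0.5, which all 10 members did, and fits were made with limma 3.58.1 (R 4.3.3; trend and robust options), only the groups compared entering each fit. The interaction and the difference among groups used all 20 hippocampi. Adjusted p-values are Benjamini-Hochberg over all genes tested. The study names thresholds for a DEG and not the test. Fold changes on this scale understate changes of low genes. Single members were compared by two-sided exact permutation tests, 60 in all. Python 3.11.15, scipy 1.17.1 and statsmodels 0.14.6 were used. Groups came from the labels, and no label says whether same-numbered mice are related. P-values set a difference between groups against the spread between the samples within them.

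Fragments were recovered from FPKM steps (tolerance 0.02) after the data were seen, up to a common factor. Fits were also tested on simulated data. Members and lists were chosen with earlier results of these data known. The 10 members and their copies were named throughout. From each vascular list the DEGs were named, at most 3 rises and 3 falls per comparison, with Hdac1, Thy1 and Ttr as checks. Alternatives were a pseudocount of 0.1, no filter, a filter at 1 FPKM, quantile normalization, median scaling, limma without trend and robust options, 1 fit of all 4 groups, ratios of mean FPKM, a replicate block, a choroid plexus score as a covariate, and each sample left out.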

Additional observations from a re-analysis of the deposited data

Results flagged for a closer look

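Among 50 sets of 4 to 6 values, 1 for each member and group, 4 held a sample far from the others, where chance gives about 1 in 20. Abcb1a in control 1 was at 3.92 FPKM, and the other 3 controls lay between 1.26 and 1.66 FPKM. Pecam1 in Hdac1 cKO mouse 3 was at 2.19 FPKM, above the other 4 at 0.594 to 0.816 FPKM. In GFAP+ nuclei, Cdh5 in sample 3 labelled Hdac1 cKO was at 0.665 FPKM, below the 1.51 to 1.59 FPKM of the other 3. Flt1 in sample 4 labelled Hdac1 cKO of the nuclei was at 5.72 FPKM, above the 3.58 to 3.88 FPKM of the other 3. The 4 values come from 4 samples and 4 genes.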

How the results depend on the processing

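No member had an adjusted p under 0.05 under any alternative, and the lowest was 0.226, in limma without trend and robust options. The number of DEGs among the 10 members moved with the settings. For Hdac1 cKO against control it was 1 with a pseudocount of 0.1 and with ratios of mean FPKM, Ocln at -0.75 and -0.80, and 2 with the choroid plexus covariate, Ocln at -0.65 and Abcb1a at -0.81. For compound against control it was 0 with the filter at 1 FPKM, which leaves Pecam1 out, with quantile normalization, with the replicate block and with the choroid plexus covariate, where Pecam1 stood at -0.60, -0.63 and -0.54 in the last 3, and it ran from 0 to 2 with a sample left out. There Pecam1 was lost without control 1 or 3 or compound mouse 3, 4 or 5, with folds of -0.81 to -0.34 over all mice left out and the smallest without control 3, and Cldn5 was added at -0.60 without control 4. For compound against 5XFAD it was 2 with a pseudocount of 0.1 (Cldn5 -0.93, Pecam1 -0.93) and with ratios (-0.98 and -1.15), and 0 to 1 with a sample left out, Cldn5 being added without 5XFAD mouse 4 or compound mouse 2. For compound against Hdac1 cKO it was 1 in those 2 settings (Pecam1 -0.96 and -1.27). For GFAP+ nuclei it was 1 with the filter at 1 FPKM and with the replicate block, where Cldn5 stood at -0.58, and 0 to 2 with a sample left out, both genes being lost without control 3 and Cldn5 without Hdac1 cKO sample 2.

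Small fold changes changed sign. With the choroid plexus covariate the values were 0.10 for Cldn5 and 0.031 for Slco1a4 in Hdac1 cKO, 0.075 for Slc2a1 and -0.061 for Abcb1a in 5XFAD, and -0.19 for Mfsd2a in compound mice. Abcb1a in Hdac1 cKO was -0.071 by ratios. In 5XFAD mice Cdh5 was 0.0059 with a pseudocount of 0.1 and Slc2a1 was 0.0093 and 0.0025 with quantile normalization and median scaling. With the replicate block Ly6c1 was -0.039 in 5XFAD and Mfsd2a -0.063 in compound mice. With a sample left out, values in Hdac1 cKO ran from -0.34 to 0.030 for Cldn5, -0.37 to 0.11 for Pecam1, -0.30 to 0.064 for Slco1a4 and -0.0997 to 0.27 for Abcb1a. In 5XFAD they ran from -0.11 to 0.26 for Cldn5, -0.086 to 0.11 for Cdh5, -0.39 to 0.088 for Pecam1, -0.023 to 0.24 for Ly6c1, -0.073 to 0.065 for Slc2a1 and -0.28 to 0.0798 for Slco1a4, and in compound mice from -0.20 to 0.016 for Cdh5, -0.11 to 0.096 for Mfsd2a and -0.17 to 0.21 for Abcb1a. The cause was not tested.

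Deviations of same-numbered mice had correlations from -0.11 to 0.094 over 27 pairs in hippocampus, which cannot decide whether such mice are related. The count of all DEGs was 874 with the choroid plexus covariate against 480 for Hdac1 cKO, 641 and 688 with a pseudocount of 0.1 and with ratios against 425 for 5XFAD, and 325 and 341 against 184 for compound against 5XFAD. At 1 fragment per FPKM step, fewer than 20 fragments lay behind most hippocampal values of Cldn5, Ocln, Cdh5 and Pecam1, which limits the precision of these levels.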
